A study of Homo sapiens with 18 samples.

Results

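The genes described here encode enzymes that build fatty acids, lengthen them and place double bonds in them. They were taken by name (FASN, ACACA, ACLY, ACSS2, SCD, FADS1, FADS2, ELOVL5, ELOVL6 and ACSL3), and each was represented by its probe set with the highest mean. Of the 10 listed enzymes, 9 had a probe set that names 1 gene, out of 18417 genes measured in all. ACSL3, which couples long fatty acids to coenzyme A, was not analysed here. Each of the 9 had a single probe set, and none shared a probe set with another gene.

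The cells were HUVEC, endothelial cells of the human umbilical vein, which the labels call a normal endothelial cell line. RNA was measured on 18 Affymetrix whole-transcript arrays, 3 arrays for each of 6 groups. In 4 groups the cells had been cultured for 3 days with extracellular vesicles (EVs) from T cells: Jurkat CD63+, Jurkat MHC1+, JinB8 CD63+ and JinB8 MHC1+ EVs. Jurkat is a human T cell leukaemia line, and JinB8 is a derivative of it that lacks CD47, a cell surface receptor for thrombospondin. CD63 is a tetraspanin and MHC1 the class 1 histocompatibility complex, and each was the surface protein by which EVs had been captured on beads. The IgG bead group received beads with immunoglobulin G and no EVs, and the untreated group received neither, with no culture time in its labels. For 5 of the 6 JinB8 arrays the free text gives another number after JinB, while the bracketed part of every such name gives JINB8, which was followed here. The T cells had conditioned a serum-free medium overnight, the concentrated media of a line were pooled before the EVs were purified, and no label says whether the 3 arrays of a group were separate cultures. P-values therefore measure the spread between these arrays, which may be technical.

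Animal cells make fatty acids from acetyl-CoA in the cytosol, and a chain of enzymes then elongates and desaturates them for membranes, storage and signalling lipids. In mammals most of these genes are targets of the SREBP transcription factors, which are held in the endoplasmic reticulum when sterols are plentiful and move to the nucleus when they are scarce. SREBP-1c is best known for the fatty acid genes and SREBP-2 for the cholesterol genes, with much overlap. Endothelial cells take up much of their fatty acid from blood or medium and also make it themselves, and FASN is known to be needed for the growth of new vessels in mice.

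The annotated promoters of SCD, FADS1 and FADS2 are shown because these are the listed desaturase genes, and because FADS1 and FADS2 are neighbours on chromosome 11. FASN was to be shown as well, but the promoter table holds no entry for it, so it is absent from all promoter counts below. Sequences are from RefSeq on GRCh38.p14, 5′ to 3′ on the strand of the gene, with 250 bases before the start and 50 from it. Capitals mark the CCAAT box (CCAAT, or ATTGG on the other strand) and the GC box (GGGCGG, or CCGCCC on the other strand). FADS2 has 2 annotated starts and so 2 windows, which overlap each other.
SCD, chr10:100346983-100347282, plus strand: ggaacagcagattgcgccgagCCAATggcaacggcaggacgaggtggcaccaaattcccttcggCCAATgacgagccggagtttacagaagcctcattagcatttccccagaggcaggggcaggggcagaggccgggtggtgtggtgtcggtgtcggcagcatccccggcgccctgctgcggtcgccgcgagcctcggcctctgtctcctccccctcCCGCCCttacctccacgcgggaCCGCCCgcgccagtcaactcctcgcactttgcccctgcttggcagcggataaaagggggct
FADS1, chr11:61816954-61817253, minus strand: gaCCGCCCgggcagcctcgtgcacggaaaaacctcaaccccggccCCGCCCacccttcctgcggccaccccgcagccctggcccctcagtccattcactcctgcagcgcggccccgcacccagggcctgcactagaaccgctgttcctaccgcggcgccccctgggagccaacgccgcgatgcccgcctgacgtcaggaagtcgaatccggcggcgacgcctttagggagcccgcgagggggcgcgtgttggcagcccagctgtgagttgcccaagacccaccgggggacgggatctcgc
FADS2, first start, chr11:61815953-61816252, plus strand: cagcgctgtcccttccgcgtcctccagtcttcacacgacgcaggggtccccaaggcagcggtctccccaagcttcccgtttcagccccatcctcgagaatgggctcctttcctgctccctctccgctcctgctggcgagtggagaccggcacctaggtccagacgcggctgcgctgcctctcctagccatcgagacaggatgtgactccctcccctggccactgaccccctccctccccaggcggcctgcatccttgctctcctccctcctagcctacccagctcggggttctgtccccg
FADS2, second start, chr11:61816154-61816453, plus strand: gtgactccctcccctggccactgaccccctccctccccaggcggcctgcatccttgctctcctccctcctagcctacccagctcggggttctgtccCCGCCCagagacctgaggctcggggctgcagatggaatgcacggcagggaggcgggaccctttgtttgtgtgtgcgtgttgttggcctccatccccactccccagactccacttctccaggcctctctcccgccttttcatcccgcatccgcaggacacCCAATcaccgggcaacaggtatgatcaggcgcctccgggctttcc
In SCD the CCAAT boxes began 229 and 186 bases before the start, and the GC boxes 33 and 11 bases before it. FADS1 had GC boxes 248 and 205 bases before its start and no CCAAT box. The second FADS2 window held a GC box 154 bases before the start and a CCAAT box at base 6 of the transcript, while the first window held neither.

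FADS1 lies on the minus strand of chromosome 11 from 61799627 to 61817003 and FADS2 on the plus strand from 61816203 to 61867354. Their 5′ ends face each other and the annotated spans share 801 bases. Across the 8 measured enzymes in the promoter table there were 13 windows, of which 8 held a CCAAT box and 10 a GC box, on either strand. Among all 35116 promoters of that length, 34.61% held a CCAAT box and 44.95% a GC box. The letters TCACNCCAC, written for the sterol regulatory element, were in 0 of the 13 windows and in 1.13% of all promoters. The E-box CACGTG was in 1 of the 13, that of ELOVL5, and in 7.26% of all. No hit of one of these motifs overlapped a hit of another, and the 2 ACLY windows, like those of FADS2, share part of their sequence. These matches describe letters in a window and were not tested for binding.

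Values are log2 RMA signals, so a difference of 1 is a doubling of the signal, and the level of one probe set is not comparable with that of another. The 2 arrays of replicate 3 in the control groups stood apart from the rest. Their median correlation with the other arrays over all probe sets was 0.636 (IgG beads) and 0.649 (untreated), against 0.947 to 0.992 for the other 16. The lowest of those 16 was Jurkat MHC1+ replicate 1, the array with the narrowest SD over genes among them, 1.74 against 1.83 to 2.06. The 15 measured endothelial markers, among them PECAM1, CDH5 and VWF, averaged 9.12 to 9.34 in the 12 EV arrays and 9.23 to 9.35 in the 4 concordant control arrays, and all 15 lay above the median of the table. In the 2 discordant arrays the same markers averaged 6.22 and 7.10. The 13 measured T cell markers averaged 4.10 to 4.69 in EV arrays, 4.16 to 4.34 in concordant controls and 5.29 and 5.39 in the discordant arrays. Results are therefore given for all 18 arrays and for the 16 arrays without replicate 3 of both controls.

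The discordant arrays were low for every enzyme, but unequally so. Against the mean of the other arrays of its group, FADS1 differed by −4.26 log2 units in IgG bead replicate 3 and by −4.46 in untreated replicate 3. In the same order ELOVL5 differed by −3.90 and −3.91, FADS2 by −4.15 and −3.46, and ACLY by −4.03 and −2.77. The differences of FASN were −1.64 and −0.93, and those of ELOVL6 −0.42 and −0.56, the smallest of the 9 genes in both arrays. The values over 18 and over 16 arrays therefore part more for FADS1, ELOVL5, FADS2 and ACLY than for FASN, ACSS2 and ELOVL6.

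**Figure D1:**
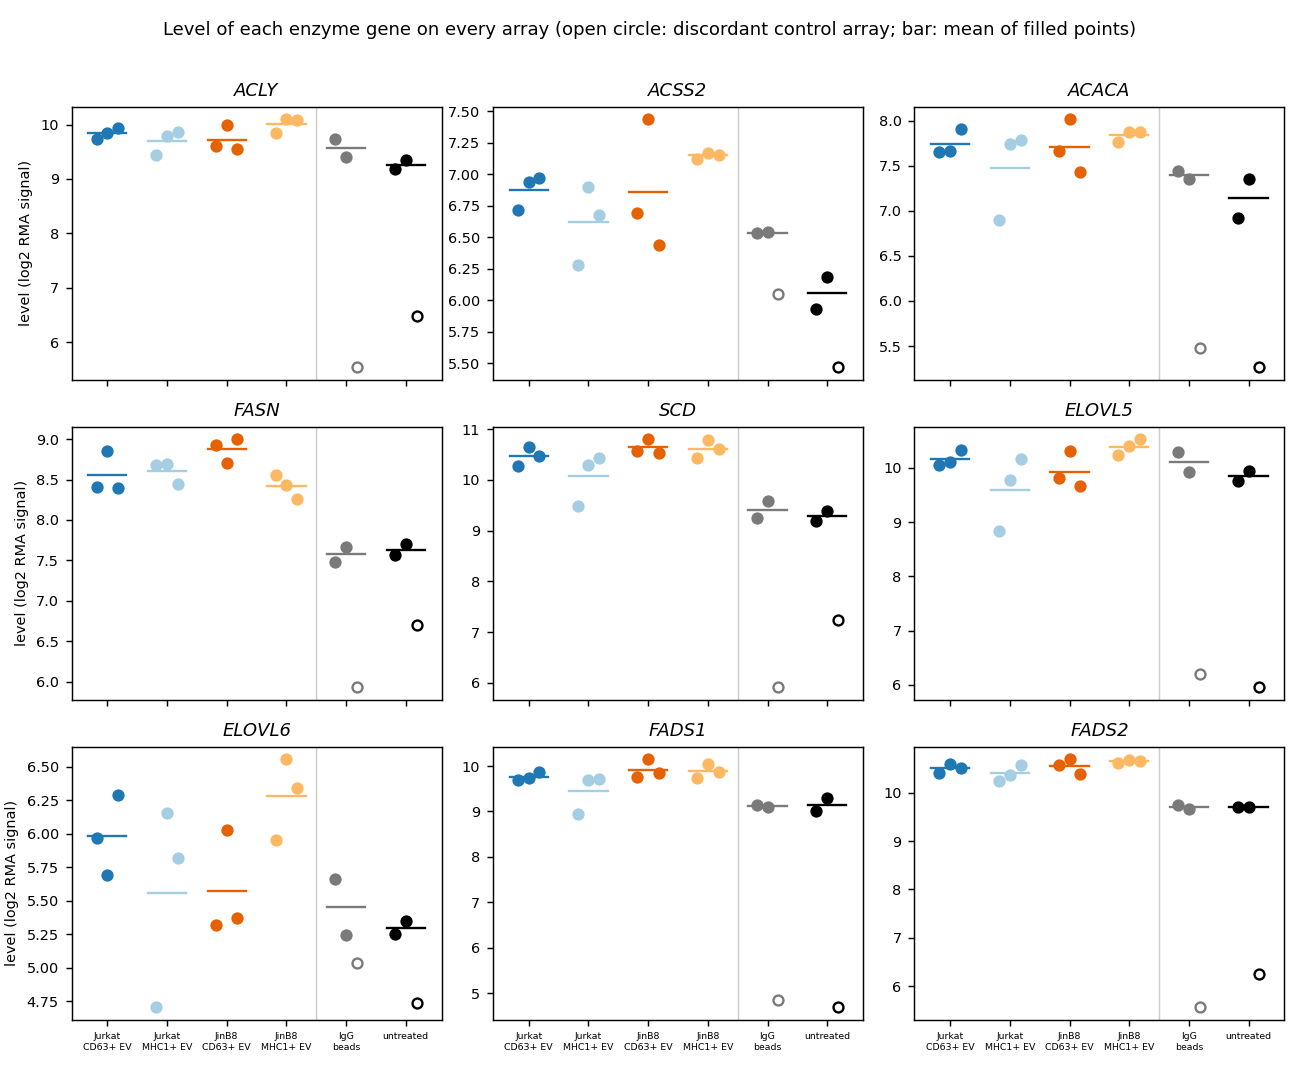
Level of the 9 enzyme genes on every array (log2 RMA signal, vertical axis) in the 4 EV groups, the IgG bead group and the untreated group. Each point is 1 array, open circles are the 2 discordant control arrays and bars are means of the filled points. FASN and FADS2 are the genes whose 12 EV points all lie above every control point.

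Over 16 arrays and against both controls together, FASN, SCD and FADS2 rose about 1.76-fold to 2.14-fold, and no enzyme fell. Over all 18 arrays 0 of the 9 enzymes passed limma's test with Benjamini-Hochberg adjustment over all genes, although all 9 had an unadjusted p under 0.05, as did 10.3% of all genes (4.53% over 16 arrays). The endothelial markers then had a median difference of 1.11 and the T cell markers of −0.39, against −0.08 and 0.02 over 16 arrays. In that comparison limma called 0.125% of the 18417 genes over 16 arrays (23 genes) and 0.00543% over 18 arrays (1 gene), beside 3 of 9 and 0 of 9 enzymes. The median difference of the 9 enzymes over 16 arrays was 0.58, against 0.0025 over all genes.

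Among the enzymes that supply the substrate, ACLY (chr17:41866917-41930545) splits citrate into cytosolic acetyl-CoA and ACSS2 (chr20:34874989-34927959) makes acetyl-CoA from acetate. ACLY averaged 9.84 ± 0.10 with Jurkat CD63+, 9.70 ± 0.23 with Jurkat MHC1+, 9.72 ± 0.24 with JinB8 CD63+ and 10.01 ± 0.14 with JinB8 MHC1+ EVs (SD, n = 3 each), against 9.57 ± 0.23 with IgG beads and 9.26 ± 0.12 untreated (SD, n = 2 each, 16 arrays). ACSS2 averaged 6.87 ± 0.14, 6.62 ± 0.32, 6.86 ± 0.52 and 7.15 ± 0.02 in the same 4 EV groups (SD, n = 3 each), against 6.54 ± 0.01 with IgG beads and 6.06 ± 0.18 untreated (SD, n = 2 each). For both genes the IgG bead mean stood between the EV groups and the untreated cells. ACLY exceeded every control in 9 of 12 EV arrays and ACSS2 in 10 of 12. Over 16 arrays the differences from both controls were 0.40 ± 0.11 and 0.58 ± 0.15 (SE), with adjusted p of 0.30 and 0.24 in limma.

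ACACA, at chr17:37084992-37406836, carboxylates acetyl-CoA to malonyl-CoA, the committed step of the pathway. It averaged 7.75 ± 0.14 with Jurkat CD63+, 7.47 ± 0.50 with Jurkat MHC1+, 7.71 ± 0.30 with JinB8 CD63+ and 7.84 ± 0.07 with JinB8 MHC1+ EVs (SD, n = 3 each). The concordant controls averaged 7.40 ± 0.07 with IgG beads and 7.14 ± 0.31 untreated (SD, n = 2 each). EV arrays exceeded every control in 10 of 12 cases, and the lowest EV array, 6.89, was below all 4 concordant controls. The difference over 16 arrays was 0.42 ± 0.15 (SE), with an adjusted p of 0.71 in limma.

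FASN, at chr17:82078338-82098236, is the multienzyme that assembles palmitate from acetyl and malonyl units. Its levels were 8.41, 8.85 and 8.39 with Jurkat CD63+ EVs and 8.68, 8.70 and 8.44 with Jurkat MHC1+ EVs. They were 8.93, 8.71 and 9.0 with JinB8 CD63+ EVs and 8.56, 8.43 and 8.27 with JinB8 MHC1+ EVs, against 7.48, 7.67 and 5.93 with IgG beads and 7.56, 7.70 and 6.71 in untreated cells. The lowest EV array (8.27) was above the highest control (7.70), so the groups did not overlap, with or without the discordant arrays. Over 16 arrays the difference of the EV groups from both controls was 1.01 ± 0.10 (SE), a 2.02-fold rise with an adjusted p of 0.00032 in limma. Over 18 arrays it was 1.44 ± 0.23 (SE) with an adjusted p of 0.093, and without IgG bead replicate 3 alone the adjusted p was 0.025. Leaving out any 1 further array of the 16 kept the difference between 0.96 and 1.06 and the adjusted p at 0.0095 or less.

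SCD, at chr10:100347233-100364826, places the first double bond in stearate and palmitate and so makes oleate and palmitoleate. Its levels were 10.28, 10.66 and 10.47 with Jurkat CD63+ EVs and 9.49, 10.30 and 10.43 with Jurkat MHC1+ EVs. With JinB8 EVs they were 10.58, 10.81 and 10.54 (CD63+) and 10.44, 10.80 and 10.62 (MHC1+), against 9.24, 9.59 and 5.91 with IgG beads and 9.19, 9.39 and 7.23 in untreated cells. In 11 of the 12 EV arrays SCD was above every control, and the exception was Jurkat MHC1+ replicate 1, the array of lowest correlation among the 16. The difference over 16 arrays was 1.10 ± 0.15 (SE), a 2.14-fold rise, with an adjusted p of 0.0039 in limma, and over 18 arrays 2.02 ± 0.46 (SE), with an adjusted p of 0.27. Without IgG bead replicate 1 the 16-array difference was 1.01 and the adjusted p 0.082.

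The 2 elongases spread most within the EV groups, with a pooled SD of 0.479 for ELOVL6 and 0.396 for ELOVL5, against 0.126 (FADS2) to 0.312 (ACSS2) for the other enzymes. ELOVL6 (chr4:110045846-110199202), which lengthens palmitate, averaged 5.98 ± 0.30 with Jurkat CD63+, 5.56 ± 0.76 with Jurkat MHC1+, 5.57 ± 0.40 with JinB8 CD63+ and 6.28 ± 0.31 with JinB8 MHC1+ EVs (SD, n = 3 each). The concordant controls averaged 5.45 ± 0.29 with IgG beads and 5.30 ± 0.07 untreated (SD, n = 2 each), and 9 of 12 EV arrays exceeded every control. Its difference over 16 arrays was 0.47 ± 0.22 (SE), with an adjusted p of 1.0 in limma. ELOVL5 (chr6:53267404-53348950), which lengthens polyunsaturated chains, read 10.06, 10.11 and 10.33 with Jurkat CD63+ EVs and 8.83, 9.77 and 10.17 with Jurkat MHC1+ EVs. It read 9.82, 10.31 and 9.67 with JinB8 CD63+ and 10.23, 10.41 and 10.53 with JinB8 MHC1+ EVs, against 10.29, 9.92 and 6.21 with IgG beads and 9.77, 9.95 and 5.95 untreated. Only 4 of the 12 EV arrays exceeded the highest control. The difference of ELOVL5 from both controls was 0.04 (95% interval −0.36 to 0.43) over 16 arrays, against 1.34 (0.03 to 2.65) over 18.

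FADS1 introduces the double bond that turns dihomo-gamma-linolenate into arachidonate. It read 9.69, 9.74 and 9.86 with Jurkat CD63+ EVs, 8.95, 9.70 and 9.72 with Jurkat MHC1+ EVs, 9.76, 10.15 and 9.85 with JinB8 CD63+ EVs and 9.74, 10.03 and 9.87 with JinB8 MHC1+ EVs. The IgG bead arrays read 9.13, 9.09 and 4.85 and the untreated arrays 9.01, 9.30 and 4.69. As for SCD, 11 of 12 EV arrays exceeded all controls and Jurkat MHC1+ replicate 1 did not. The difference over 16 arrays was 0.62 ± 0.13 (SE) and missed the threshold in limma (adjusted p = 0.10). It passed in the 15 arrays without Jurkat MHC1+ replicate 1, at 0.69 and an adjusted p of 0.001 in limma. That call rests on leaving out the EV array with the contrary value. Of the 16 fits that leave out 1 further array it was the only 1 in which FADS1 passed, the differences running from 0.55 to 0.70. In those 15 arrays 4 of 9 enzymes were called against both controls, beside 0.337% of all genes.

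FADS2 carries out the first desaturation of the essential polyunsaturated fatty acids. Its levels were 10.42, 10.60 and 10.51 with Jurkat CD63+ EVs, 10.24, 10.37 and 10.58 with Jurkat MHC1+ EVs, 10.56, 10.69 and 10.38 with JinB8 CD63+ EVs and 10.62, 10.67 and 10.66 with JinB8 MHC1+ EVs. The controls read 9.74, 9.67 and 5.56 with IgG beads and 9.71, 9.70 and 6.25 untreated. The 4 concordant controls lay within a narrow band and all 12 EV arrays were above it, the lowest at 10.24. The difference over 16 arrays was 0.82 ± 0.08 (SE), a 1.76-fold rise, with an adjusted p of 0.00032 in limma. Over 18 arrays it was 2.09 ± 0.58 (SE), with an adjusted p of 0.27. Without any 1 further array of the 16 it stayed between 0.79 and 0.84, with an adjusted p of 0.0069 or less.

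In all, 2 of the 9 enzymes, FASN and FADS2, had every EV array above every control array. Over all genes 0.0923% had every EV array above the 4 concordant controls (17 genes), and 0.0543% had every EV array above all 6 controls (10 genes).

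**Figure D2:**
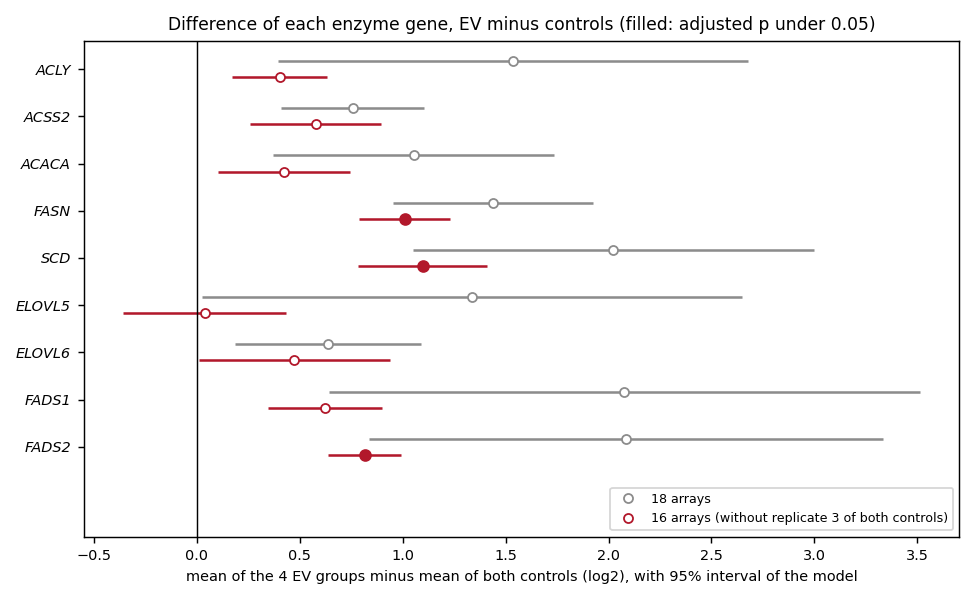
Difference between the mean of the 4 EV groups and the mean of both control groups (log2, horizontal axis) with its 95% model interval, for each enzyme gene over 18 arrays (grey) and 16 arrays (red). Filled points are FADS2, SCD and FASN over 16 arrays, and no 18-array point is filled. ELOVL5 moves to about 0 when the 2 discordant arrays are left out.

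The 2 controls gave similar values for the enzymes that were called. With IgG beads alone set against untreated cells, limma called 0 of 9 enzymes over 16 or 18 arrays, 0 of them with an unadjusted p under 0.05, and 0.0% of all genes. The difference of IgG beads from untreated over 16 arrays was −0.06 for FASN (95% interval −0.44 to 0.32), 0.0013 for FADS2 (−0.31 to 0.31) and 0.13 for SCD (−0.41 to 0.67). It was largest for ACSS2, at 0.48 (−0.07 to 1.03). Intervals this wide do not show that bead contact leaves the levels alike.

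Against IgG beads alone, which share the handling of the EV cultures, FASN and FADS2 rose over 16 arrays. FASN differed by 1.04 ± 0.14 (SE) and FADS2 by 0.82 ± 0.11 (SE), both with an adjusted p of 0.01 in limma, and 0.0434% of all genes were called. SCD differed by 1.03 ± 0.19 (SE) with an adjusted p of 0.12, and ELOVL5 by −0.08 ± 0.24 (SE). These calls need both bead arrays: without IgG bead replicate 1 or without replicate 2, 0 enzymes were called, beside 0.00543% of all genes. The differences without the one or the other were 0.94 and 1.14 for FASN and 0.85 and 0.78 for FADS2, with a single array left to stand for the beads. Without Jurkat MHC1+ replicate 1 there were 4, with SCD at an adjusted p of 0.0018 and FADS1 at 0.018, beside 0.152% of all genes. Over 18 arrays limma called 0 of 9, with 7 of the 9 and 3.83% of all genes at an unadjusted p under 0.05 and 0.00543% of all genes called.

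Against untreated cells the same EV arrays gave calls for FASN (0.98, adjusted p = 0.015 in limma) and FADS2 (0.82, adjusted p = 0.014) over 16 arrays, beside 0.0326% of all genes. Without untreated replicate 1 or without replicate 2, which leaves 1 untreated array, 0 enzymes were called, beside 0.0% and 0.0163% of all genes. Over 18 arrays 0 of 9 were called, 8 of them with an unadjusted p under 0.05 (5.84% of all genes), beside 0.00543% of all genes. The EV arrays are common to both comparisons, so the second is not independent of the first.

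A moderated F test over the 6 group means called FASN, FADS2 and SCD over 16 arrays, with adjusted p of 0.0049 for FASN, 0.0062 for FADS2 and 0.031 for SCD in limma. This F test called 0.233% of all genes over 16 arrays. Over 18 arrays it called 0 of 9 enzymes, 4 of which had an unadjusted p under 0.05 (1.09% of all genes), and 0.0109% of all genes. In the 15 arrays without Jurkat MHC1+ replicate 1 it called 4 enzymes and 0.662% of all genes.

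Set singly against IgG beads over 16 arrays, the JinB8 EV groups gave calls and the Jurkat EV groups did not. The adjustment runs within each comparison, so this split does not by itself show a difference between the lines. FASN with Jurkat MHC1+ EVs had an unadjusted p of 1.4e-05 in limma (adjusted p = 0.16). FADS2 with JinB8 CD63+ EVs had 1.3e-05 and was called. The FASN difference was 0.98 (CD63+) and 1.03 (MHC1+) with Jurkat EVs, against 1.31 and 0.85 with JinB8 EVs. With JinB8 CD63+ EVs FASN rose by 1.31 ± 0.16 (SE, adjusted p = 0.0055 in limma), 2.47-fold, and FADS2 by 0.84 ± 0.13 (SE, adjusted p = 0.027), beside 0.0923% of all genes. With JinB8 MHC1+ EVs FADS2 rose by 0.94 ± 0.13 (SE, adjusted p = 0.0058), beside 0.212% of all genes. FASN (0.85 ± 0.16) and SCD (1.20 ± 0.23) there had an adjusted p that rounds to 0.05 and lies just over the threshold. All of these calls were lost without IgG bead replicate 1 or without replicate 2, when 1 bead array was left.

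With Jurkat CD63+ EVs the differences from IgG beads were 0.98 ± 0.16 for FASN, 0.80 ± 0.13 for FADS2 and 1.05 ± 0.23 for SCD (SE). Their adjusted p in limma were 0.094, 0.094 and 0.59, so 0 of 9 were called, 4 having an unadjusted p under 0.05 (1.55% of all genes), beside 0.00543% of all genes. With Jurkat MHC1+ EVs FASN differed by 1.03 ± 0.16 (SE, adjusted p = 0.16), FADS2 by 0.69 ± 0.13 (0.31) and SCD by 0.66 ± 0.23 (0.47). There too 0 of 9 enzymes were called, 3 having an unadjusted p under 0.05 (9.33% of all genes), beside 0.0% of all genes. Without Jurkat MHC1+ replicate 1, 3 enzymes were called for Jurkat CD63+ EVs, beside 0.0434% of all genes, since all groups share 1 estimate of the spread. Over 18 arrays 0 of 9 enzymes were called in each of the 4 EV groups, with 3 to 5 enzymes and 1.06% to 5.04% of all genes at an unadjusted p under 0.05. The share of all genes called was then 0.00543% for Jurkat CD63+, 0.0% for Jurkat MHC1+, 0.00543% for JinB8 CD63+ and 0.0434% for JinB8 MHC1+ EVs. These 4 comparisons share their bead arrays, so their likeness carries no weight of its own.

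**Figure D3:**
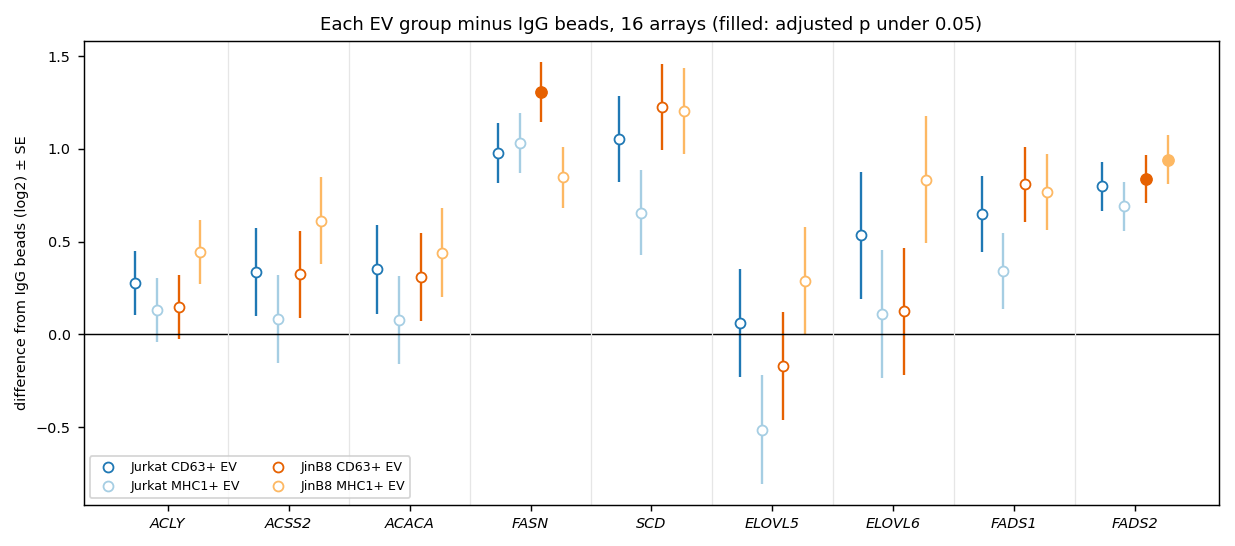
Difference of each EV group from the IgG bead group (log2, vertical axis) with its SE, for the 9 enzyme genes over 16 arrays. Filled points passed limma's threshold: FASN for JinB8 CD63+ EVs, and FADS2 for both JinB8 EV groups. Every enzyme except ELOVL5 is above 0 in all 4 EV groups, and ELOVL5 lies on both sides of it.

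The means of the EV groups had different orders for different enzymes. FASN was highest with JinB8 CD63+ EVs (8.88 ± 0.15, SD, n = 3) and lowest among EV groups with JinB8 MHC1+ EVs (8.42 ± 0.15, SD, n = 3), and the arrays of these 2 groups did not overlap. For ACLY, ACSS2, ACACA, ELOVL5, ELOVL6 and FADS2 the highest mean was that of JinB8 MHC1+ EVs. The lowest EV mean belonged to Jurkat MHC1+ EVs for every enzyme except FASN, but without replicate 1 of that group this held for 4 of the 9 (ACSS2, SCD, FADS1 and FADS2), and JinB8 CD63+ EVs were lowest for the other 4. With FASN left aside, no EV group was apart from the next in every array, save JinB8 MHC1+ from Jurkat CD63+ EVs for ACSS2. How many of all genes separate 2 EV groups in this way was not counted, so these separations are not read as particular to the enzymes. For CD63+ minus MHC1+ EVs within JinB8, 16.6% of all genes had an unadjusted p under 0.05 in limma over 16 arrays.

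None of these differences among EV groups was called. For CD63+ minus MHC1+ EVs over both lines, the differences over 16 arrays ran from −0.14 (ELOVL6) to 0.21 (SCD). Limma called 0 of 9 enzymes, 0 of them at an unadjusted p under 0.05 (4.2% of all genes), beside 0.0217% of all genes, and 0.0109% over 18 arrays. The intervals bound these differences: for FADS2 it was −0.18 to 0.18 and for FASN −0.02 to 0.42. Within JinB8, FASN was higher with CD63+ than with MHC1+ EVs by 0.46 ± 0.15 (SE, adjusted p = 0.22 in limma), while ELOVL6 differed by −0.71 ± 0.31 (SE, adjusted p = 0.28). There 0 of 9 were called over 16 arrays, 2 having an unadjusted p under 0.05 (16.6% of all genes), beside 0.185% of all genes (0.00543% over 18 arrays). Within Jurkat 0 of 9 were called, 1 having an unadjusted p under 0.05 (11.0% of all genes), beside 0.00543% (0.0% over 18 arrays).

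For JinB8 minus Jurkat EVs over both captures, all 9 differences were above 0 over 16 arrays, from 0.07 (FASN) to 0.36 (SCD). The smallest adjusted p was 0.75 in limma, so 0 of 9 were called, 2 having an unadjusted p under 0.05 (6.52% of all genes), beside 0.0543% called (0.0% over 18 arrays). SCD differed by 0.21 without Jurkat MHC1+ replicate 1, ELOVL6 by −0.06, and 0 of 9 had an unadjusted p under 0.05 (5.6% of all genes). With MHC1+ EVs alone the differences were 0.80 ± 0.26 for ELOVL5, 0.55 ± 0.21 for SCD and −0.19 ± 0.15 for FASN (SE). Limma called 0 of 9 there, 6 having an unadjusted p under 0.05 (29.6% of all genes) and the smallest adjusted p being 0.10, beside 0.386% of all genes (0.0326% over 18 arrays). Without Jurkat MHC1+ replicate 1 the differences were 0.42 ± 0.19 for ELOVL5 and 0.26 ± 0.15 for SCD (SE). Then 1 of 9 had an unadjusted p under 0.05 (12.2% of all genes), and 0 were called beside 0.315% of all genes. Without Jurkat MHC1+ replicate 3, which leaves that group with replicates 1 and 2, 4 enzymes were called, beside 30.8% of all genes. With CD63+ EVs alone 0 of 9 were called, 1 having an unadjusted p under 0.05 (4.02% of all genes), beside 0.0% of all genes over either set of arrays.

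The interaction asks whether the CD63+ minus MHC1+ difference is larger in JinB8 than in Jurkat. It was 0.51 ± 0.21 (SE) for FASN and below 0 for the other 8 enzymes, as low as −1.13 ± 0.43 (SE) for ELOVL6 and −1.03 ± 0.37 (SE) for ELOVL5. Their adjusted p in limma were 0.15, 0.14 and 0.14. Over 16 arrays 0 of 9 were called, 3 having an unadjusted p under 0.05 (28.7% of all genes), beside 0.0163% of all genes, and over 18 arrays 0 of 9 beside 0.0%. The interaction without Jurkat MHC1+ replicate 1 was −0.71 ± 0.31 for ELOVL6 and −0.65 ± 0.25 for ELOVL5 (SE). Limma then called 0 of 9 enzymes, beside 0.0814% of all genes called. An unadjusted p under 0.05 was found there for 3 of the 9 enzymes and for 3324 of the 18417 genes. Without Jurkat MHC1+ replicate 3, 1 enzyme was called beside 25.4% of all genes, and without JinB8 CD63+ replicate 2, 1 enzyme beside 9.7%. In all 18-array comparisons among EV groups 0 enzymes were called, and 1 enzyme at most had an unadjusted p under 0.05. Of all genes 0.255% to 3.43% had such a p in these comparisons, and 0.0% to 0.0326% were called.

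Within the 12 EV arrays FASN did not follow the other enzymes. The 28 pairs of the other 8 enzymes had Pearson r from 0.62 to 0.96 over these arrays, with a median of 0.83, and the closest pair was SCD with FADS1 (0.958). The 8 pairs that include FASN had r from −0.64 (with ACLY) to −0.003 (with SCD). Over the 16 arrays r of FASN with the mean of the other enzymes was 0.504, and over the 12 EV arrays −0.421. These correlations describe arrays that share groups and array quality, and carry no test.

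The spread of each array moved with these levels. Over the 12 EV arrays the SD of all genes on an array had r of 0.71 (SCD) to 0.97 (ELOVL5) with the 8 enzymes other than FASN, and −0.66 with FASN. The EV arrays had an SD of 1.74 to 2.06 and the concordant controls of 1.92 to 2.04, so the EV range held that of the controls. With the array SD as a covariate over 16 arrays, 8 of 9 enzymes were called against both controls, beside 1.22% of all genes, and 5 of 9 against IgG beads, beside 0.337%. The part of array quality in the differences among EV groups was not tested.

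**Figure D4:**
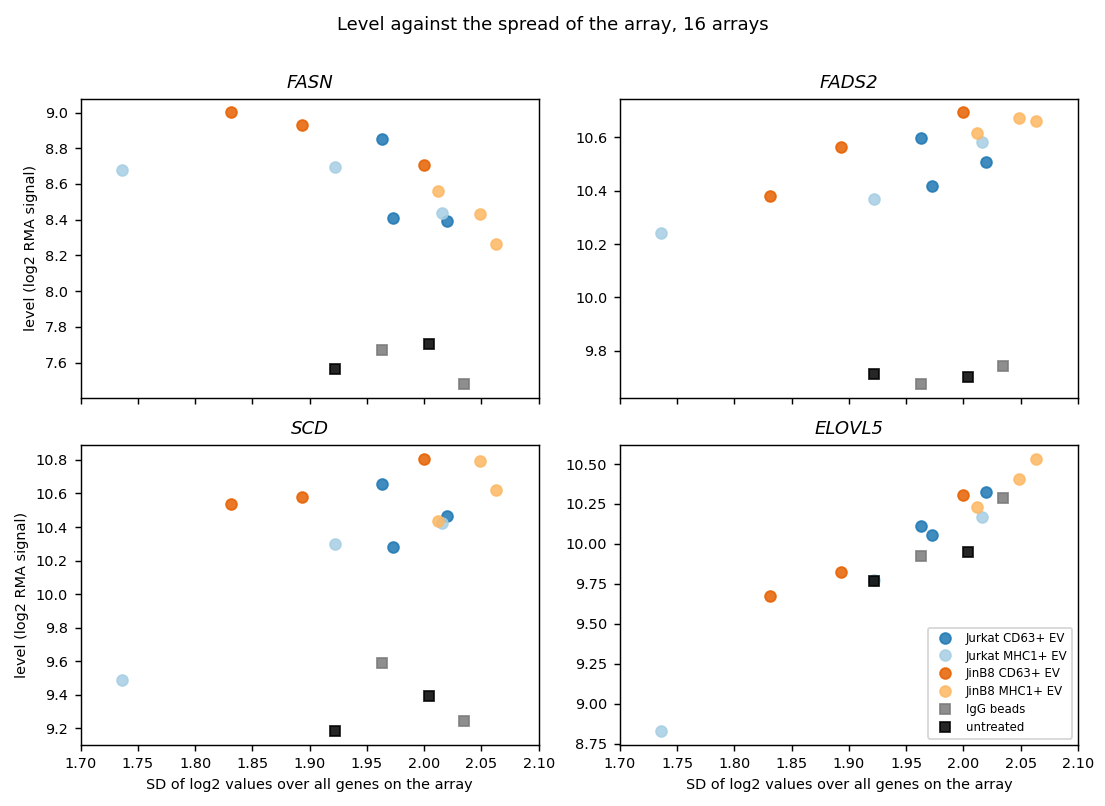
Level of FASN, FADS2, SCD and ELOVL5 (log2 RMA signal, vertical axes) against the SD of all genes on the array (horizontal axes) for the 16 arrays, circles for EV and squares for control arrays. ELOVL5 follows the SD in all groups (r = 0.953 over 16 arrays), FASN declines with it among EV arrays, and all EV points of FASN and FADS2 lie above all control points.

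The regulators of the pathway were read in a list of 16 genes, of which 15 were measured. INSIG1, which holds the SREBP complex in the endoplasmic reticulum and is itself an SREBP target, rose by 1.38 ± 0.16 (SE, adjusted p = 0.00085 in limma) against both controls over 16 arrays. SREBF2, which encodes SREBP-2, rose by 0.51 ± 0.08 (SE, adjusted p = 0.024). SREBF1, which encodes SREBP-1, differed by 0.21 ± 0.09 (SE, adjusted p = 1.0). The other members, among them SCAP, the proteases that release SREBP and the subunits of NF-Y, did not pass, and the median of the list was 0.0005. Over 18 arrays 0 of the 15 were called, 3 having an unadjusted p under 0.05. In this comparison 10.3% of all genes had such a p over 18 arrays and 4.53% over 16. The same shares apply to the lists that follow.

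Cholesterol synthesis, the sister pathway of SREBP, had 16 of 20 listed genes measured. Against both controls over 16 arrays DHCR7, the last reductase of the pathway, rose by 0.99 ± 0.10 (SE, adjusted p = 0.00032 in limma), and MSMO1, a sterol methyl oxidase, by 1.20 ± 0.20 (SE, adjusted p = 0.029). The median of the list was 0.77 and 15 of 16 differences were above 0, beside 0.58 and 9 of 9 for the fatty acid enzymes. Over 18 arrays 0 of the 16 were called, 12 having an unadjusted p under 0.05. In the 15 arrays without Jurkat MHC1+ replicate 1, 11 of the 16 were called, beside 4 of the 9 fatty acid enzymes.

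The genes that supply citrate and NADPH gave smaller differences, with a median of 0.26 and 0 of 8 called over 16 arrays, 4 having an unadjusted p under 0.05. SLC25A1, the mitochondrial citrate exporter, differed by 0.44 ± 0.09 (SE, adjusted p = 0.12 in limma), IDH1, which makes NADPH in the cytosol, by 0.52 ± 0.17 (0.61), and TKT, transketolase, by 0.20 ± 0.08 (0.86). Other desaturases, elongases and enzymes of the elongation cycle had a median of 0.02 and 0 of 16 called, 1 having an unadjusted p under 0.05. Of these ELOVL4, which makes very long chains, had the smallest p, with a difference of 0.27 ± 0.11 (SE, adjusted p = 0.91). CYB5R3, the reductase that passes electrons to desaturases, differed by 0.09 ± 0.08 and ELOVL3 by 0.08 ± 0.10 (SE, adjusted p = 1.0 each).

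Other acyl-CoA, acetyl-CoA and carboxylase genes had a median of 0.02 and 0 of 13 called, 2 having an unadjusted p under 0.05. ACAT2, the cytosolic thiolase that also opens the sterol pathway, differed by 1.09 ± 0.28 (SE, adjusted p = 0.22 in limma), ACSS1, the mitochondrial acetate enzyme, by −0.22 ± 0.10 (1.0) and AACS by 0.29 ± 0.17 (1.0). Glycerolipid synthesis and droplet genes had a median of −0.04 and 0 of 13 called, 3 having an unadjusted p under 0.05. These were PCYT2, of phosphatidylethanolamine synthesis (0.52 ± 0.12 SE, adjusted p = 0.20), LPIN1, a phosphatidate phosphatase (0.63 ± 0.16, 0.21), and PNPLA3, a droplet protein (0.31 ± 0.09, 0.40). In the 15 arrays without Jurkat MHC1+ replicate 1, ACAT2 (1.25 ± 0.15 SE) and LPIN1 (0.68 ± 0.13 SE) passed.

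Fatty acid uptake and binding genes had a median of 0.03 and 0 of 9 called in limma, 0 having an unadjusted p under 0.05. FABP4, a carrier of fatty acids in endothelium, differed by 0.24 ± 0.12, FABP3 by 0.12 ± 0.08 and SLC27A1, a fatty acid transporter, by 0.09 ± 0.09 (SE, adjusted p = 1.0 each). Fatty acid oxidation genes had a median of 0.01 and 0 of 21 called, 2 having an unadjusted p under 0.05. CPT1A, which admits fatty acids to mitochondria, differed by −0.29 ± 0.08 (SE, adjusted p = 0.32), PDK4 by −0.21 ± 0.10 (1.0) and ECI1 by 0.16 ± 0.11 (1.0). Against both controls over 18 arrays 0 genes of any of these 6 lists were called, with 0 to 7 genes of a list at an unadjusted p under 0.05.

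**Figure D5:**
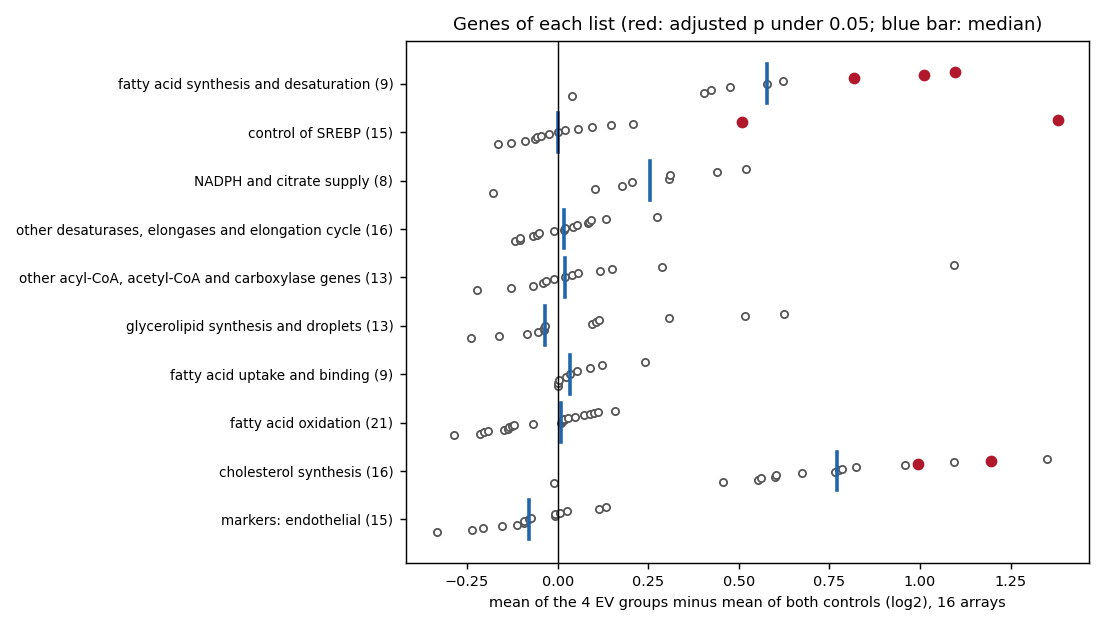
Difference between the mean of the 4 EV groups and the mean of both controls (log2, horizontal axis, 16 arrays) for each measured gene of the lists named at the left, with the number measured. Blue bars are medians, and red points passed limma's threshold: 3 fatty acid enzymes, INSIG1 and SREBF2 among regulators, and DHCR7 and MSMO1 of cholesterol synthesis. The medians of the other lists lie between −0.08 and 0.26.

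Markers of other cell types did not separate EV arrays from concordant controls. Against both controls over 16 arrays limma called 0 of the 15 endothelial, 13 T cell, 11 fibroblast and smooth muscle, 9 monocyte, 8 epithelial and 7 adipocyte markers measured. Of these, 1 endothelial, 1 fibroblast and smooth muscle and 1 epithelial marker had an unadjusted p under 0.05, and none of the others. The medians of these lists were −0.08, 0.02, 0.04, 0.07, 0.01 and 0.12. In bulk RNA more cells of a type and more RNA per cell cannot be told apart.

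Among 18408 genes that are not among the 9, those whose pattern over the 16 arrays was most like the mean of the enzymes (each centred on its own mean) were CYP51A1 (r = 0.978), LSS (0.968), MSMO1 (0.965), HMGCS1 (0.956), LPIN1 (0.95), INSIG1 (0.948), ACAT2 (0.946), SQLE (0.942), FDPS (0.927) and NPC1 (0.922). Of these 10, 7 were in the list of cholesterol synthesis, and 9 had an r over 0.9 in the 12 EV arrays alone. CYP51A1 and LSS act on lanosterol and its precursor, HMGCS1 and SQLE act earlier in the sterol pathway, and NPC1 carries cholesterol out of lysosomes. For FASN alone the nearest of all other genes were SREBF2 (0.938), SLC25A1 (0.871), MVD (0.849), STC1 (0.832) and DHCR7 (0.827). Over the 12 EV arrays these stood at 0.753, 0.737, 0.45, 0.561 and −0.152, so that the likeness of DHCR7 to FASN was not seen among the EV arrays by themselves.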

How the data were processed

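RNA of HUVEC in 6 groups was measured on 18 whole-transcript arrays. Per the submitters' processing notes the authors used RMA in Affymetrix Expression Console, whose version no source used here gives. This method subtracts background, quantile-normalizes and summarises the probes of a set. The deposited values (2.13 to 14.1) were taken as log2 signal, a scale read from their range. The RNA kit of the sample labels and that of the series' design text differ. Precision rests on how many arrays there are, since arrays have no depth of reads. No batch was taken from the labels, so batch and group cannot be told apart.

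Of 33297 probe sets, 19460 named 1 gene in the platform annotation, 1754 named several and 12083 none. Genes with more than 1 probe set (769 of 18417) were represented by the probe set with the highest mean. Symbols were checked against RefSeq by Entrez number. No filter on low values was used.

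One mean per group was fitted with limma 3.58.1 in R 4.3.3 (lmFit, eBayes), with moderated two-sided tests, Benjamini-Hochberg adjustment over all genes and calls at an adjusted p under 0.05. The model used all 18 arrays, and again 16 without replicate 3 of both controls and 15 also without Jurkat MHC1+ replicate 1. The fit was tested on simulated data. Further steps ran in Python 3.11.15 (pandas 2.3.3, numpy 2.4.6, with matplotlib 3.10.9 for plots).

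The enzymes, lists and tests were chosen with earlier results of these data known. The text names every enzyme, up to 6 called genes of each list, otherwise the 3 with the smallest p, and the genes most like the enzymes by Pearson r. Promoters were read from a RefSeq table. Alternatives were a filter on low genes, all probe sets, trend and robust moderation, quantile normalization, median centring, only the groups compared, the array SD as covariate, and each array left out. Array weights were also planned but not used, because their estimation did not converge.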

Additional observations from a re-analysis of the deposited data

How the results depend on the processing

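All 18-array counts of called enzymes were 0. Under 9 alternatives besides leaving out 1 array 121 of 143 such counts were again 0, which at this floor says nothing about stability, and 290 of 324 enzyme differences kept their direction and their side of the threshold. Over 16 arrays 2 enzymes were called against IgG beads, 2 against untreated cells, 3 against both controls, 2 for JinB8 CD63+ and 1 for JinB8 MHC1+ EVs against beads, and 3 in the F test. The shares of all genes called were, in that order, 0.0434%, 0.0326%, 0.125%, 0.0923%, 0.212% and 0.233%. Over 15 arrays the counts were 4, 4, 4, 4, 4 and 4, beside 0.152%, 0.147%, 0.337%, 0.293%, 0.63% and 0.662% of all genes. Jurkat CD63+ EVs then had 3, beside 0.0434%. With the array SD as a covariate over 16 arrays the counts were 5, 7, 8, 5, 4 and 7, with 4 for Jurkat CD63+ and 2 for Jurkat MHC1+ EVs. The covariate also raised the share of all genes called, to 0.337% against IgG beads and 1.22% against both controls. The shares of its other comparisons are not given here. Quantile normalization again gave 1 against both controls. ELOVL5 turned to −0.085 against IgG beads over 16 arrays. Over 15 arrays the CD63+ minus MHC1+ difference turned for ACACA (−0.075), ELOVL5 (−0.132) and FADS2 (−0.037), and JinB8 minus Jurkat for ELOVL6 (−0.056). With the covariate ACSS2 turned to 0.034 for CD63+ minus MHC1+ and ELOVL6 to −0.0086 for JinB8 minus Jurkat. None of these was called, and the cause was not tested.

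Leaving out 1 of 18 arrays, FASN passed against both controls without IgG bead replicate 3 (1.17, adjusted p = 0.025 in limma). No other enzyme passed there in any of these fits, and the share of all genes is not given here. ELOVL5 against IgG beads ran from −0.085 to 1.96 over the 18 fits. For CD63+ minus MHC1+ EVs the ranges were −0.075 to 0.149 (ACACA), −0.132 to 0.203 (ELOVL5), −0.037 to 0.049 (FADS2), −0.164 to 0.086 (ACSS2) and −0.357 to 0.0059 (ELOVL6). ELOVL6 for JinB8 minus Jurkat ran from −0.056 to 0.307. Leaving out 1 of the 16, a setting added after seeing the data, gave 0 to 4 called against untreated cells, 0 to 4 against IgG beads, 2 to 4 against both controls, 0 to 4 for either JinB8 group, 0 to 3 for Jurkat CD63+ and 0 to 1 for Jurkat MHC1+ EVs against beads. It gave 0 to 4 for JinB8 minus Jurkat MHC1+ EVs (4 without Jurkat MHC1+ replicate 3) and 0 to 1 for the interaction. ELOVL5 ran from −0.053 to 0.134 against both controls and from −0.268 to 0.098 against beads. No paired analysis was possible because the labels give no replicate numbers that pair arrays. The array weights that were not used called 95.5% of genes in the F test.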
